A study of Mus musculus with 8 samples.

Results

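The genes described here are 33 mouse genes of MHC class I antigen presentation and of the interferon-inducible GTPase families, taken by name from a fixed list among the 54838 gene identifiers of the count files. They are the class I heavy chains and beta-2 microglobulin (8 genes), the supply and loading of peptides (10), the guanylate-binding proteins or GBPs (8), the immunity-related GTPases or IRGs (4), and the transactivators *Nlrc5* and *Ciita* with *Cd274* (3). Of the 33 genes, 31 passed the filter on low counts and were tested. *Gbp6* and *Iigp1* did not pass it.

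RNA was sequenced from splenic natural killer (NK) cells in 8 libraries. The 4 libraries named hNK came from healthy wild-type mice, model WT FVB/n, and the 4 named teNK from MMTV-PyMT mice, described in the series design as bearing tumours. In MMTV-PyMT mice a mammary promoter drives the polyoma virus middle T oncogene, and mammary tumours follow. Both groups were sorted as CD45+/CD49b+/CD3- and held 12 to 16 h in medium supplemented with cytokines before RNA was extracted. The sources used here do not give the ages, the cytokines, the background strain of the MMTV-PyMT mice or the number of animals behind a library. No label states that replicates are separate animals, so p-values measure the spread between these libraries only, which may be technical.

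MHC class I molecules show peptides from inside the cell to T cells and to NK cells, whose inhibitory receptors read them as a sign of self. A class I molecule is a heavy chain bound to beta-2 microglobulin. Its peptides are cut by the proteasome, in which interferon gamma exchanges the standard catalytic subunits for immunoproteasome subunits, and are carried into the endoplasmic reticulum by the TAP transporter. Interferon gamma also induces the GBPs and IRGs, GTPases that attack the vacuoles of intracellular microbes. NLRC5 switches on class I genes and CIITA class II genes, through the same promoter elements.

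Promoter sequence is shown first for the class I genes, because these elements are known features of class I promoters. RefSeq promoters (GRCm38.p6, 250 bases before to 50 after the start) were found for 24 of the 33 genes. They were searched on both strands for TGACG, the core of a cyclic AMP response element, and for CCAAT, the NF-Y box. Capitals mark these 2 motifs in stretches of 70 bases from *B2m* and 5 heavy chain genes. CCAAT appears as ATTGG where it lies on the other strand.
B2m (chr2:122147589-122147658, plus strand): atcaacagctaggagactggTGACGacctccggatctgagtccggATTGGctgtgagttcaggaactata
H2-K1 (chr17:34000339-34000408, minus strand): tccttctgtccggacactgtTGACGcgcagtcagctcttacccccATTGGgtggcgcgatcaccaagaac
H2-D1 (chr17:35262973-35263042, plus strand): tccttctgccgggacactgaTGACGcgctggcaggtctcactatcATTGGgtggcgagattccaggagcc
H2-Q4 (chr17:35379493-35379562, plus strand): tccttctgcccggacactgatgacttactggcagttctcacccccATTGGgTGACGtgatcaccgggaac
H2-Q6 (chr17:35424726-35424795, plus strand): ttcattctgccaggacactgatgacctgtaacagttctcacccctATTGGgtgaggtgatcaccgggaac
H2-Q7 (chr17:35439070-35439139, plus strand): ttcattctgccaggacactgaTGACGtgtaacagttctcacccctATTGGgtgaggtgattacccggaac

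In *B2m*, *H2-K1* and *H2-D1* the start of TGACG lay 25 bases before that of ATTGG, and in *H2-Q7* 24 bases. This spaced pair, chosen after the promoters were read and allowed starts 20 to 30 bases apart, was found in 4 genes of the 24 and in 0.25% of all 32851 promoters. CCAAT alone was in 13 of the 24 genes and in 41.1% of all genes with a promoter. TGACG was in 10 of the 24 and in 6228 of all 27025 such genes. A match describes these letters only and does not show that a factor binds there.

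Reads on genes numbered 5202131 to 12419324 in hNK and 13111043 to 16209895 in teNK, so counting error was larger in hNK, and largest in hNK replicates 3 and 4. The labels of teNK, and not those of hNK, mention technical replicates of the raw data. Levels are given as CPM, the reads of a gene relative to all reads on genes of its library, with library sizes scaled by the trimmed mean of M values (TMM). Of 9 NK cell markers 8 rose in teNK and 1 fell, with summed levels of 3412 to 4019 CPM in hNK and 7066 to 7532 CPM in teNK. Markers of B cells rose in 12 of 13 tested genes, and their summed level was 91.1 to 134 CPM in hNK and 177 to 227 CPM in teNK. Most of the hNK sum was *Ighm*, the 1 not called, at 95.8 CPM in hNK and 96.5 CPM in teNK. The fitted rises of the 12 ran from 2.85-fold for *Ighd* to 120-fold for *Cr2*. Platelet and megakaryocyte markers rose in 9 of 9 tested genes, with sums of 19.6 to 43.7 CPM and 175 to 301 CPM. Dendritic cell markers, 3 of 10 tested with *Itgax* higher, summed to 16.99 to 23.9 CPM and 72.4 to 94.6 CPM. Most of the teNK sum was *Itgax*, at 5.74 to 10.4 CPM in hNK and 59.9 to 80.8 CPM in teNK. *Zbtb46* (7.04 and 9.11 CPM) and *Bst2* (4.88 and 3.65 CPM) were not called. Reads in hNK and teNK were 0 and 4 for *Xcr1*, 0 and 5 for *Clec9a*, 4 and 9 for *Siglech* and 3 and 4 for *Cd209a*. They were 9 and 7 for *Flt3*, 10 and 6 for *Ccr9* and 1 and 0 for *Batf3*. Of 6 tested T cell markers 1 rose and 1 fell, and their sums were 271 to 312 CPM and 259 to 275 CPM. Monocyte and macrophage markers, 3 of 12 tested with 1 higher and 1 lower, summed to 543 to 746 CPM and 370.5 to 429 CPM. Most of that sum was *Ccr2*, which fell from 665 to 389.99 CPM, whereas *Lyz2* rose from 0.459 to 6.95 CPM. Erythroid markers, 1 of 8 tested and higher, summed to at most 0.542 CPM in hNK and 2.73 to 11.1 CPM in teNK. Neutrophil markers summed to at most 0.165 CPM in hNK and 1.90 to 7.04 CPM in teNK, with *Ly6g*, *Camp* and *Retnlg* at 0 reads in both groups, and macrophage *C1qa* and *C1qb* had 0 reads in hNK and 1 read each in teNK. In bulk RNA, a change in the share of cells of a type and a change in RNA per cell cannot be told apart, and the part of these other cell types in the results was not tested.

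Class I chains and their regulators were higher in teNK. All 8 genes of class I chains rose, as did *Nlrc5*, *Ciita* and *Cd274*. Of 10 peptide supply and loading genes 5 rose by small amounts, and of the 10 tested GTPases 3 rose, 3 fell and 4 were not called. In all, 19 of the 31 tested genes rose and 3 fell (edgeR quasi-likelihood test over all genes, Benjamini-Hochberg adjusted p under 0.05). Over the 13903 genes tested, 51.9% were called, 26.4% higher and 25.6% lower, against 61.3% and 9.68% of the tested members. For the GTPases taken by themselves, the shares called in each direction were near those over all genes. The median log2 fold change of the 31 tested members was 0.30, beside -0.02 over all genes tested. The groups did not overlap, with teNK above hNK, in 16 of the 31 genes (24.1% of all genes), and with teNK below in 3 (22.4%). The 3 genes that fell were *Gbp3*, *Gbp7* and *Irgm1*. Without hNK replicate 1 the number that fell was 6, with *Gbp2*, *Irgm2* and *Psme2* added, and without teNK replicate 3 it was 5, with *Gbp5* and *Psme2* added.

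**Figure D1:**
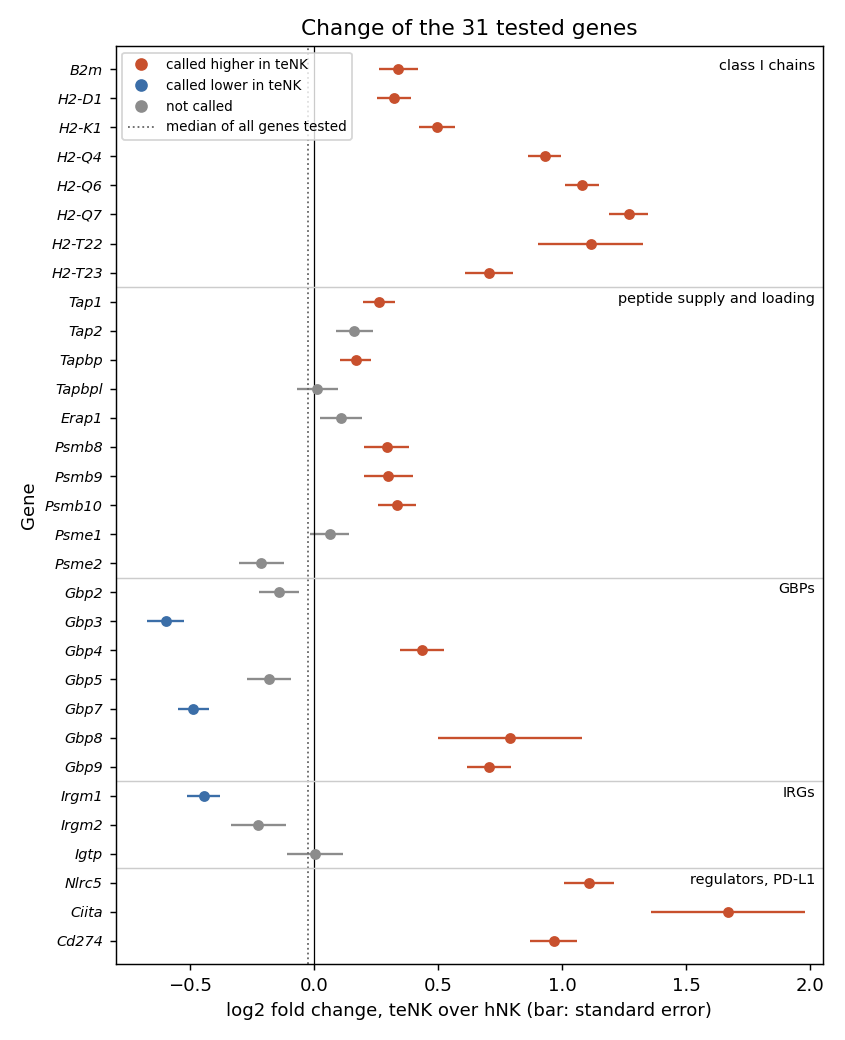
Log2 fold change of teNK over hNK for the 31 tested genes, grouped by role, with the standard error as bars and colours for the call at an adjusted p under 0.05. The class I chains, Nlrc5, Ciita and Cd274 all lie to the right of 0. The GTPases lie on both sides, from -0.60 for Gbp3 to 0.79 for Gbp8.

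When the same fit was tested against a change of 1.5-fold, 7 of the 31 genes passed as higher, beside 9.33% of all genes. They were *H2-Q4*, *H2-Q6*, *H2-Q7*, *H2-T22*, *Nlrc5*, *Ciita* and *Cd274*. None passed as lower (edgeR's glmTreat), nor did any at an unadjusted p under 0.05, and the share over all genes was 6.11%. Without the deeper hNK replicates 1 and 2, a setting chosen after the data were seen, 4 genes passed as higher, namely *H2-Q4*, *H2-Q6*, *H2-Q7* and *Nlrc5*.

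All 8 class I chains rose, and they included the 3 most abundant messages of the set. Per kilobase of exon, *B2m* stood first of the 33 genes in both groups, with 2378 CPM per kilobase in hNK and 3010 in teNK, followed by *H2-D1* (403 and 504) and *H2-K1* (144 and 203). *H2-Q6* moved from rank 7 to rank 4, with 30.97 CPM per kilobase in hNK and 65.3 in teNK. The 8 messages together made up 3688 ± 165 CPM in hNK and 4857 ± 201 CPM in teNK (SD, n = 4). The lowest teNK sum, 4559 CPM in replicate 2, was above the highest hNK sum, 3911 CPM in replicate 2.

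*B2m* (ENSMUSG00000060802, chromosome 2, 122147686 to 122153083, plus strand) encodes beta-2 microglobulin, the light chain shared by class I molecules. Its level was 1855, 2181, 2029 and 2115 CPM in hNK replicates 1 to 4 and 2701, 2389.6, 2622 and 2641 CPM in teNK replicates 1 to 4. All teNK libraries were above all hNK libraries, and the log2 fold change was 0.34 ± 0.08 (SE, edgeR adjusted p = 0.0016). It had no near copy, as no 50-base stretch of its transcripts was found in those of another gene.

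*H2-D1* and *H2-K1*, on chromosome 17 at 35262730 to 35267499 and 33996017 to 34000347, encode the classical heavy chains that present peptide to CD8 T cells and engage Ly49 receptors of NK cells. *H2-D1* stood at 1045, 1122, 992 and 996 CPM in hNK and 1315, 1257, 1281 and 1341 CPM in teNK, a log2 change of 0.32 ± 0.07 (SE, adjusted p = 0.000832). *H2-K1* stood at 430.3, 442, 421 and 399.99 CPM in hNK and 579, 536, 628 and 648 CPM in teNK, a log2 change of 0.50 ± 0.07 (SE, adjusted p = 2.00e-05). In both genes the groups did not overlap.

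The non-classical genes of the Q region, which lie on chromosome 17 between *H2-D1* and the T region, rose between 1.90-fold and 2.41-fold. *H2-Q4* stood at 74.3, 64.6, 70.6 and 70.8 CPM in hNK and 135, 138, 139 and 122 CPM in teNK, 1.90-fold higher. *H2-Q6* stood at 70.3, 57.1, 63.8 and 67.0 CPM in hNK and at 138, 133, 141 and 134 CPM in teNK, 2.11-fold higher. *H2-Q7* (35439155 to 35443773), whose product is a Qa-2 antigen, was at 36.3, 31.8, 28.2 and 35.95 CPM in hNK and 81.7, 82.4, 79.1 and 76.1 CPM in teNK. Its log2 fold change of 1.27 ± 0.08 (SE, adjusted p = 1.03e-09) was the largest among the 8 class I chains.

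*H2-T23*, at 36029773 to 36032855, encodes Qa-1, the ligand of the CD94/NKG2A inhibitory receptor. It had 10.4, 10.6, 10.9 and 10.7 CPM in hNK and 16.8, 17.1, 18.0 and 17.3 CPM in teNK, a log2 change of 0.71 ± 0.10 (SE, adjusted p = 1.58e-05). The replicates of this gene lay close together, with a coefficient of variation of 1.93% in hNK and 2.94% in teNK. *H2-T22*, a class I-like protein bound by some gamma-delta T cells, was covered by 83 reads of the hNK libraries together and 288 of teNK. Its values were 1.91, 1.91, 2.80 and 3.43 CPM in hNK and 4.67, 5.02, 5.54 and 5.27 CPM in teNK, with no overlap and a fitted level 2.17-fold higher. Its change was not past 1.5-fold without hNK replicate 1 or without hNK replicate 2, and the call of a rise held in both cases.

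Reads of the class I genes can be shared. The share of 50-base stretches also found in transcripts of another gene was 9.63% for *H2-K1*, 12.8% for *H2-D1*, 14.5% for *H2-T23*, 26.5% for *H2-Q7*, 34.97% for *H2-Q6*, 36.4% for *H2-Q4* and 53.5% for *H2-T22*. GRCm38 is the genome of C57BL/6J, whose class I alleles are not those of FVB. If the groups differed in strain, that difference and the tumour cannot be told apart. Exons of *H2-T22* and *H2-Q4* also overlapped genes on the other strand (29.4% and 19.1% of their length), and the sources used here do not say whether the counting used strand.

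**Figure D2:**
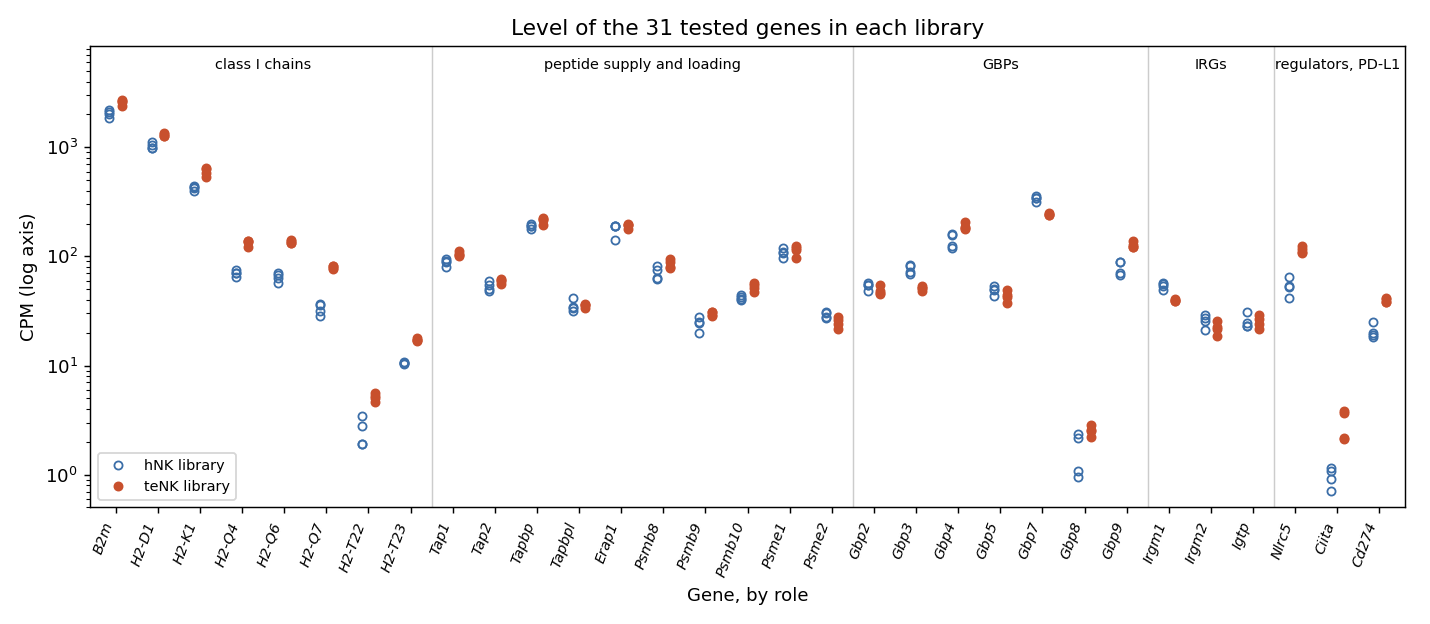
CPM on a log axis for each of the 31 tested genes in each library, open circles for the 4 hNK and filled circles for the 4 teNK libraries, grouped by role. All 4 filled points lie above all 4 open points for each of the 8 class I chains and for Nlrc5, Ciita and Cd274.

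Of 12 other class I and class I-like genes listed, 11 were in the files, 7 were tested and 6 rose, beside 26.4% of all genes. None was called lower by edgeR, beside 25.6% of all genes, nor by DESeq2 or at an unadjusted p under 0.05. *H2-Q10* and *H2-T3*, with 12 and 31 reads in hNK, passed the filter through their teNK levels, so they could hardly be called lower. *H2-T24*, which had the smallest adjusted p of the 7, stood at 6.77 ± 0.572 CPM in hNK and 38.7 ± 2.30 CPM in teNK (SD, n = 4), a log2 change of 2.52 ± 0.10 (SE, adjusted p = 3.92e-12). *H2-Q10* went from 0.421 ± 0.349 to 6.10 ± 0.390 CPM (12 and 343 reads), *H2-T10* from 5.68 ± 0.975 to 10.6 ± 0.859 CPM and *H2-T3* from 0.937 ± 0.461 to 2.34 ± 0.221 CPM. Transcripts of *H2-Q10* shared 50-base stretches with those of *H2-Q7* and *H2-K1*, and transcripts of *H2-T10* with those of *H2-T22*. Reads of these genes may therefore be shared. The median log2 fold change of the 7 was 0.90.

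Peptide supply and loading genes had small fold changes. Of 10 genes, 5 rose and none was called lower by edgeR or by DESeq2 (1 at an unadjusted p under 0.05). The log2 fold changes ran from -0.21 to 0.33 with a median of 0.17, and none of the 10 passed against 1.5-fold, also at an unadjusted p under 0.05.

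*Tap1* (chromosome 17, 34187553 to 34197225), one chain of the peptide transporter, had 88.1, 79.5, 93.8 and 91.8 CPM in hNK and 106, 104, 101 and 111 CPM in teNK. The groups did not overlap, and the log2 fold change was 0.26 ± 0.07 (SE, adjusted p = 0.00315). *Tap2*, the other chain, had 59.0, 50.7, 47.8 and 54.9 CPM in hNK and 59.1, 56.4, 62.2 and 60.8 CPM in teNK. Here the groups overlapped, since hNK replicate 1 stood above teNK replicate 2, and the log2 change of 0.16 ± 0.07 missed the threshold (adjusted p = 0.0770). Without that hNK library it was 0.22 with an adjusted p of 0.0147.

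*Tapbp*, encoding tapasin, which holds empty class I molecules at the transporter, stood at 190 ± 7.71 CPM in hNK and at 213 ± 13.1 CPM in teNK (SD, n = 4). Its log2 fold change of 0.17 ± 0.06 passed (adjusted p = 0.0335), but not in 9 of 16 alternatives, among them those without hNK replicate 3 or 4 and without teNK replicate 1, 3 or 4 (adjusted p = 0.0571 to 0.0932). *Tapbpl*, a tapasin-related peptide editor, had 35.3 ± 4.19 and 35.6 ± 1.11 CPM, a log2 change of 0.01 ± 0.08 that did not pass. *Erap1*, the aminopeptidase that trims peptides in the endoplasmic reticulum, had 178 ± 24.1 and 191 ± 7.82 CPM, 0.11 ± 0.08 on the log2 scale, and did not pass either. Among the partners of the loading complex and other trimming enzymes, 4 of 10 rose and 2 fell. *Calr* (calreticulin) rose from 245 ± 19.8 to 297 ± 19.9 CPM and *Lnpep* from 761 ± 88.6 to 1063 ± 78.2 CPM, whereas *Erp29* fell from 35.7 ± 4.11 to 25.6 ± 1.38 CPM and *Tpp2* from 429 ± 26.3 to 360.4 ± 3.70 CPM.

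All 3 catalytic subunits of the immunoproteasome rose slightly. *Psmb8* (beta5i, chromosome 17, 34197721 to 34201454) had 63.4, 61.9, 74.7 and 81.3 CPM in hNK and 79.5, 78.3, 88.8 and 94.5 CPM in teNK. Its groups overlapped, since hNK replicate 4 stood above teNK replicates 1 and 2, and the rise of 0.29 ± 0.09 (SE, log2, adjusted p = 0.0117) did not pass without hNK replicate 2 (0.23, adjusted p = 0.0526) or without hNK replicates 1 and 2 (0.12, adjusted p = 0.274). *Psmb9* (beta1i, 34181987 to 34187764) had 19.9, 27.9, 24.6 and 24.9 CPM in hNK and 28.4, 29.1, 30.7 and 31.3 CPM in teNK. The rise of 0.30 ± 0.10 (adjusted p = 0.0179) did not pass without hNK replicate 1, which held the lowest value (0.20, adjusted p = 0.0679). *Psmb10* (beta2i, chromosome 8, 105935735 to 105938444) had 40.5, 39.7, 42.4 and 44.6 CPM in hNK and 54.5, 47.4, 50.9 and 56.9 CPM in teNK, with no overlap and a log2 change of 0.33 ± 0.08 (adjusted p = 0.0015).

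Of the standard proteasome counterparts and regulators, 1 of 7 was called and it fell (*Psmf1*, from 49.4 ± 2.01 to 34.1 ± 1.69 CPM). None of the 7 was called higher by edgeR or DESeq2 or at an unadjusted p under 0.05. *Psmb5*, *Psmb6* and *Psmb7* had log2 fold changes of -0.37 ± 0.16, -0.21 ± 0.09 and -0.15 ± 0.08, which did not pass. The ratio of an immunoproteasome subunit to its counterpart in the same library does not depend on how libraries are scaled. The ratio of *Psmb8* to *Psmb5*, in reads per kilobase, was 2.18, 1.84, 2.04 and 2.06 in hNK and 3.21, 3.82, 2.88 and 3.16 in teNK, 1.60-fold higher. That of *Psmb9* to *Psmb6* was 0.347 ± 0.0474 in hNK and 0.499 ± 0.0632 in teNK (SD, n = 4), 1.44-fold higher. That of *Psmb10* to *Psmb7* was 2.08 ± 0.0722 and 2.91 ± 0.290 in the same order, 1.39-fold higher. In these 3 ratios every teNK library was above every hNK library, with a 2-sided exact permutation p of 0.0286, the smallest that 4 against 4 allows, and 0.0381 when adjusted over the 4 ratios tested.

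**Figure D3:**
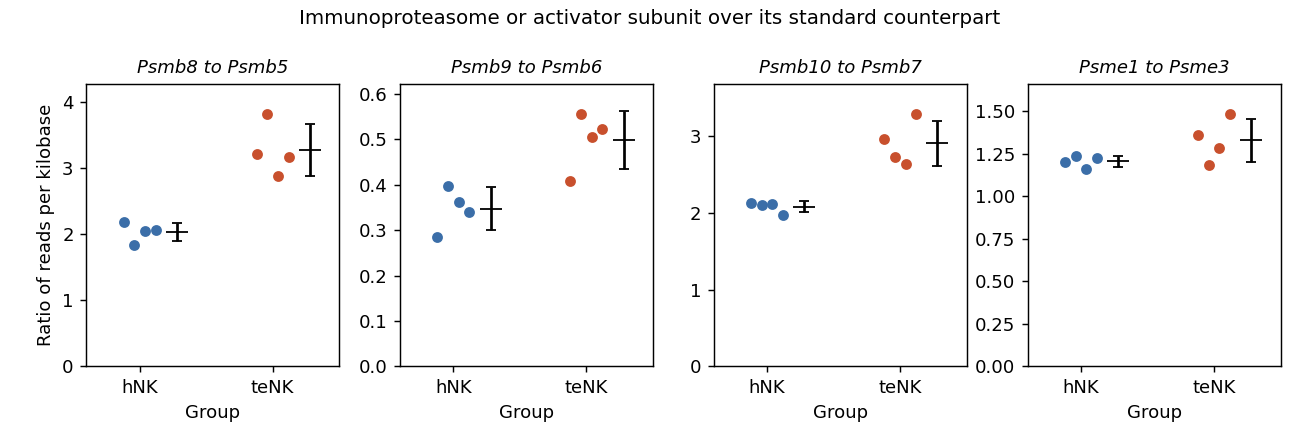
Ratio of reads per kilobase of an immunoproteasome or activator subunit to its standard counterpart in each library (points), with the mean and SD of 4 libraries beside them. The teNK points lie above the hNK points for Psmb8 to Psmb5, Psmb9 to Psmb6 and Psmb10 to Psmb7, and the groups overlap for Psme1 to Psme3.

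*Psme1* and *Psme2* encode the alpha and beta chains of PA28, an activator that opens the proteasome. *Psme1* had 109 ± 9.15 CPM in hNK and 113 ± 11.2 CPM in teNK and *Psme2* 28.97 ± 1.73 and 24.9 ± 2.62 CPM (SD, n = 4), and neither passed. *Psme2* had the lowest fold change of the 10 genes, -0.21 ± 0.09 (SE, log2, adjusted p = 0.0642), and was called lower in 5 of 16 alternatives, among them those without hNK replicate 1 (adjusted p = 0.0482) and without teNK replicate 3 (adjusted p = 0.0345). Of its 50-base stretches, 28.3% also occurred in another gene, such as the copy *Psme2b*. The ratio of *Psme1* to *Psme3*, the nuclear PA28 gamma chain, was 1.20 ± 0.0348 in hNK and 1.33 ± 0.125 in teNK (exact permutation p = 0.114, adjusted p = 0.114).

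*Tap1* and *Psmb9* are transcribed away from each other, and their RefSeq starts lay 226 bases apart. Both rose by similar amounts, 1.20-fold and 1.23-fold. Exons of these genes overlapped in part (3.87% of the exon length of *Tap1* and 5.79% of that of *Psmb9*).

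The GBPs went in both directions. Of 7 tested GBPs, 3 rose, 2 fell and 2 were not called. The rises were those of *Gbp4*, *Gbp8* and *Gbp9*, which lie with *Gbp6* on chromosome 5 between 105014150 and 105293698. The falls were those of *Gbp3* and *Gbp7*, on chromosome 3 between 142493978 and 142638008, where *Gbp2* and *Gbp5* also lie. This split by chromosome was noticed in the values and was given no test. The gene models of *Gbp4*, *Gbp8* and *Gbp9* overlap on the minus strand, over 0.814% of the exon length of *Gbp4*, 1.77% of that of *Gbp8* and 1.16% of that of *Gbp9*.

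*Gbp7* was the most abundant GBP per kilobase in both groups (60.6 and 43.3 CPM per kilobase). It was at 345, 359.95, 345 and 312 CPM in hNK and 242, 243, 251 and 237 CPM in teNK, with no overlap and a log2 change of -0.49 ± 0.06 (SE, adjusted p = 4.97e-06). *Gbp3* was at 82.2, 83.9, 68.8 and 72.6 CPM in hNK and 51.6, 48.2, 51.7 and 53.1 CPM in teNK, a log2 change of -0.60 ± 0.07 (adjusted p = 3.94e-06), the largest fall of the 31 genes. *Gbp2*, a GBP recruited to vacuoles of Toxoplasma, had 54.0 ± 4.03 CPM in hNK and 48.8 ± 4.501 CPM in teNK. *Gbp5*, which promotes inflammasome assembly, had 49.1 ± 4.38 and 43.5 ± 4.84 CPM. Neither passed (log2 fold changes of -0.14 ± 0.08 and -0.18 ± 0.09). *Gbp2* was called lower without hNK replicate 1 (adjusted p = 0.0436), and *Gbp5* without hNK replicate 3 (0.0394) or teNK replicate 3 (0.0416).

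On chromosome 5, *Gbp4* was at 126, 119, 157 and 160.4 CPM in hNK and 188, 205, 183 and 178 CPM in teNK, a log2 change of 0.44 ± 0.09 (SE, adjusted p = 0.000633). *Gbp9* was at 70.5, 67.0, 89.4 and 88.7 CPM in hNK and 122, 137, 128 and 121 CPM in teNK, 0.70 ± 0.09 on the log2 scale (adjusted p = 4.97e-06). *Gbp8* had 51 reads in hNK and 144 in teNK, and its values of 1.08, 0.953, 2.14 and 2.35 CPM in hNK overlapped the 2.57, 2.86, 2.49 and 2.22 CPM of teNK. In all 3 genes hNK replicates 3 and 4, the shallower libraries, stood above hNK replicates 1 and 2. With only replicates 3 and 4 on the hNK side, in a fit added after the data were seen, the log2 fold change was 0.24 for *Gbp4* (adjusted p = 0.0121), 0.51 for *Gbp9* (adjusted p = 2.96e-05) and 0.17 for *Gbp8* (adjusted p = 0.687). With only replicates 1 and 2 it was 0.62, 0.88 and 1.31. The call for *Gbp8* (0.79 ± 0.29, adjusted p = 0.0304) was also lost without hNK replicate 1 (adjusted p = 0.0986), hNK replicate 2 (0.137), teNK replicate 1 (0.0573) or teNK replicate 2 (0.0725). With all libraries kept, DESeq2 did not call *Gbp8* (adjusted p = 0.0569).

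**Figure D4:**
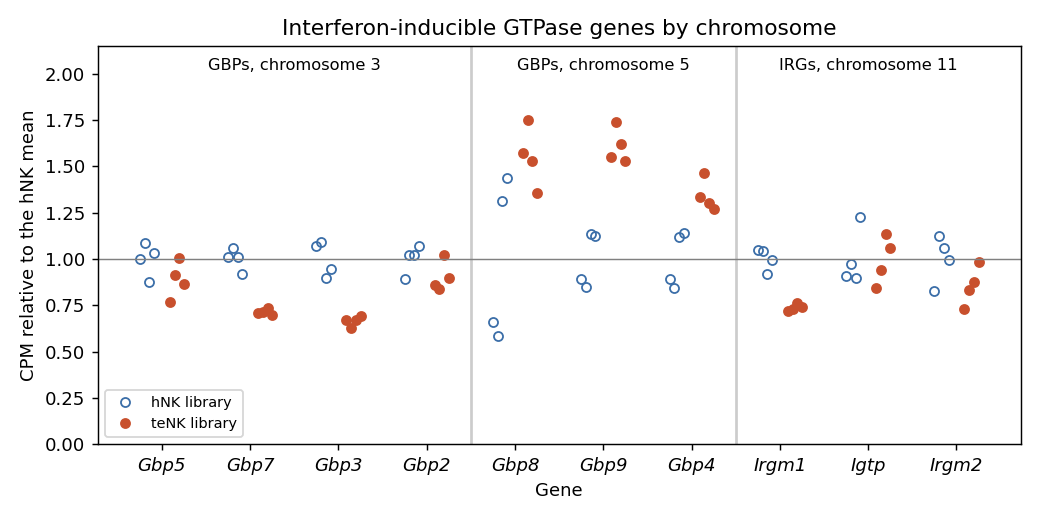
CPM of each library divided by the hNK mean of the gene, for the 7 tested GBPs and 3 tested IRGs by chromosome, open circles for hNK and filled for teNK. The teNK points of Gbp3, Gbp7 and Irgm1 lie between 0.627 and 0.760, and those of Gbp4, Gbp8 and Gbp9 between 1.27 and 1.75.

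Of 3 tested IRGs 1 fell and none was called higher by edgeR, by DESeq2 or at an unadjusted p under 0.05. *Irgm1* (chromosome 11, 48861968 to 48871683), which keeps other IRGs off the cell's own membranes, was at 56.5, 56.3, 49.6 and 53.7 CPM in hNK and 38.8, 39.4, 41.1 and 40.1 CPM in teNK. The groups did not overlap, and the log2 fold change was -0.45 ± 0.07 (SE, adjusted p = 3.96e-05). *Irgm2*, of the same regulatory class, had 25.8 ± 3.28 and 22.1 ± 2.74 CPM (SD, n = 4), and its log2 fold change of -0.22 ± 0.11 did not pass, except without hNK replicate 1 (-0.32, adjusted p = 0.0172) or teNK replicate 4 (-0.29, adjusted p = 0.0495). *Igtp*, also known as Irgm3, had 25.5 ± 3.91 and 25.4 ± 3.27 CPM. Its log2 fold change of 0.00 ± 0.11 did not pass, and its sign turned in 8 of 16 alternatives.

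Both untested GTPases had few reads. *Gbp6* had 4 reads in hNK and 22 in teNK, and 70.7% of its 50-base stretches occurred in other genes. *Iigp1*, an effector IRG that coats vacuoles, had 22 reads in hNK and 13 in teNK, with 2.35 CPM in hNK replicate 4 and 0.165 to 0.333 CPM in the other hNK libraries. A floor of 3 counts corresponded to 0.190 to 0.542 CPM over the 8 libraries. Among 11 other interferon-inducible GTPase genes 6 were tested, of which 3 rose and 2 fell. *Gvin1*, a very large GTPase, rose from 68.4 ± 9.99 to 110.4 ± 12.3 CPM and *Gm12250* from 9.16 ± 2.55 to 13.5 ± 1.81 CPM. *Gbp11* fell from 5.13 ± 2.04 to 0.663 ± 0.196 CPM and *Tgtp2* from 12.7 ± 0.325 to 8.93 ± 0.116 CPM. *Gbp11* also lies on chromosome 5 in the GENCODE annotation, so the split by chromosome did not extend to it.

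Promoters were also searched for elements through which interferon acts. Among the GTPases, RefSeq promoters were found for *Gbp2*, *Gbp3*, *Gbp5*, *Gbp7*, *Irgm1*, *Irgm2* and *Igtp*, and not for *Gbp4*, *Gbp6*, *Gbp8*, *Gbp9* and *Iigp1*. The core of the interferon-stimulated response element (ISRE), which is GAAA, any 2 bases and GAAA, and the gamma-activated site, TTCNNNGAA, were searched on both strands. Capitals mark them in stretches of 60 bases from 6 GTPase genes and from *B2m*, to set genes that fell or were not called beside one that rose.
Gbp3 (chr3:142559974-142560033, plus strand): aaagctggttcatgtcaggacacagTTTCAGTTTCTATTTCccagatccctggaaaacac
Gbp7 (chr3:142530258-142530317, plus strand): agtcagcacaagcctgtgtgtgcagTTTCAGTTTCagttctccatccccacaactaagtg
Gbp2 (chr3:142620579-142620638, plus strand): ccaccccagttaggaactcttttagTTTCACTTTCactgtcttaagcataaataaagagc
Irgm1 (chr11:48871416-48871475, minus strand): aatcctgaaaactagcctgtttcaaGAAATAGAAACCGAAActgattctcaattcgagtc
Igtp (chr11:58199497-58199556, plus strand): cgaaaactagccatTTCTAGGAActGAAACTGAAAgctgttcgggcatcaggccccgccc
Irgm2 (chr11:58214888-58214947, plus strand): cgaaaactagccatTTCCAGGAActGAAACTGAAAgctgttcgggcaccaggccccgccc
B2m (chr2:122147523-122147582, plus strand): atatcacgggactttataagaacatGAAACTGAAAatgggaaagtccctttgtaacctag

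The ISRE core was found in 12 of the 24 genes with a promoter and in 3.99% of all genes with one, and the gamma-activated site in 5 of the 24 and in 9.55% of all such genes. Of the 12 genes with the ISRE core, 3 rose, 3 fell and 6 were not called. Of the 12 without it, 11 rose and 1 was not called. Only these exact letters were counted, so near matches were missed, such as TTTCACTTCT in the promoters of *H2-K1*, *H2-D1*, *H2-Q4*, *H2-Q6* and *H2-Q7*. For CCAAT, 11 of the 13 genes with it rose and 2 fell, and of the 11 without it 3 rose, 1 fell and 7 were not called. The counts leave out all 3 GTPases that rose, and *Nlrc5* and *Ciita*, for which no promoter was found. They describe the same genes as the groups by role and are no separate evidence, and elements outside these promoter stretches were not searched.

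*Nlrc5*, the transactivator of class I genes, rose 2.16-fold. It was at 65.0, 41.9, 53.6 and 52.2 CPM in hNK and 110.4, 124, 108 and 117 CPM in teNK, with no overlap. The log2 fold change was 1.11 ± 0.10 (SE, adjusted p = 1.21e-07), past 1.5-fold in all 16 fits in which that test was run. The gene lies on chromosome 8 at 94434356 to 94527272.

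*Ciita* (chromosome 16, 10480059 to 10528418), the class II transactivator, was rare, with 33 reads over the hNK libraries together and 167 over those of teNK. Its level was 0.915, 0.715, 1.15 and 1.08 CPM in hNK and 2.11, 3.68, 2.17 and 3.82 CPM in teNK. The log2 fold change of 1.67 ± 0.31 (SE, adjusted p = 0.000268) was the largest of the 31 genes. Beside it, *Cd74*, the class II invariant chain, went from 3.92 to 33.6 CPM. The summed B cell markers were 177, 205, 189 and 227 CPM in teNK replicates 1 to 4, so that replicates 2 and 4 were the higher libraries for these markers and for *Ciita*. The part of B cells in the level of *Ciita* was not tested.

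*Cd274* (chromosome 19, 29367455 to 29388095) encodes PD-L1, a ligand of the checkpoint receptor PD-1. Interferon gamma induces PD-L1 in many cells. It was at 19.1, 18.1, 19.96 and 25.3 CPM in hNK and 41.7, 37.8, 40.3 and 38.3 CPM in teNK, with no overlap and a log2 change of 0.97 ± 0.10 (SE, adjusted p = 3.41e-07). Without hNK replicates 1 and 2 neither *Ciita* nor *Cd274* passed against 1.5-fold, and both stayed called higher. Of 8 other factors of class I and class II promoters, 4 rose and 1 fell, each by at most 0.32 on the log2 scale. *Rfx5* rose from 28.02 ± 1.94 to 34.8 ± 1.24 CPM, *Nfya* from 59.98 ± 2.40 to 70.1 ± 1.44 CPM and *Creb1* from 221 ± 8.61 to 256 ± 15.04 CPM, and *Rfxap* fell from 22.5 ± 1.21 to 19.1 ± 1.18 CPM. The call for *Rfxap* was not made by DESeq2 (adjusted p = 0.0666).

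Among 17 tested genes of interferon receptors and signalling, 11 rose and 1 fell, beside 26.4% and 25.6% of all genes. *Ifng*, the cytokine itself, stood at 20.2 ± 4.62 CPM in hNK and 121 ± 7.70 CPM in teNK (SD, n = 4). *Irf1*, the transcription factor that acts on ISREs of class I and GBP genes, rose from 152 ± 5.76 to 244 ± 8.50 CPM, 0.68 ± 0.06 on the log2 scale (SE, adjusted p = 5.43e-08). *Tyk2* went from 106 ± 10.3 to 294 ± 12.5 CPM and *Irf8* from 125 ± 25.5 to 679 ± 21.7 CPM. *Socs1* fell from 87.8 ± 3.99 to 26.4 ± 2.14 CPM, whereas *Socs3*, *Ptpn2* and *Usp18* rose (log2 fold changes of 0.83, 0.50 and 1.65). *Ifngr2*, the second chain of the interferon gamma receptor, was not tested, as it had 8 reads in hNK and 44 in teNK. *Ifngr2*, *Socs3*, *Ptpn2* and *Usp18* were named after their values were seen.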

How the data were processed

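RNA was sequenced from 8 libraries of sorted mouse spleen NK cells, 4 hNK and 4 teNK, prepared with a stranded mRNA kit per the labels' protocols. The deposited values are raw read counts per Ensembl gene. Per the submitters' processing notes, HISAT2 2.1.0, SAMtools and HTSeq were used on GRCm38. Not given in the sources used here are the annotation release, the strand setting and the treatment of reads with several matches. Summary lines for reads in no gene (32.3% to 41.2% of a library's counts) and in more than 1 gene (1.52% to 2.07%) were left out of library sizes and tests.

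Identifiers were named with GENCODE M21. Genes were filtered with edgeR's filterByExpr, which kept 13903 of the 27313 genes with a read, scaled by TMM, and tested with edgeR 4.0.16 (glmQLFit and glmQLFTest, and glmTreat against 1.5-fold, in R 4.3.3), on all 8 libraries with the group as the only term. P-values were adjusted by Benjamini-Hochberg over all genes tested. No replicates held identical values or counts within sampling noise. Ratios of subunits were compared by 2-sided exact permutation over libraries. SDs and SEs include the spread between libraries. Floors of 3 counts cover counting error only, since reads carry no molecular identifiers. The fitting procedure was tested on simulated data.

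The 33 genes and all lists were chosen with earlier results of these data known. All 33 are named. From each pathway list at most 4 genes with the smallest adjusted p are named, and *Ifng*, *Irf1*, *Psmb5*, *Psmb6*, *Psmb7* and *Psme3* whatever their values. Genes named after their values were seen are marked as such. A gene that this rule also names is not reported here. Alternatives were DESeq2 1.42.0, other scaling and filters, the replicate number as a block, and leaving out libraries.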

Additional observations from a re-analysis of the deposited data

Results flagged for a closer look

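In each group the highest or lowest library of each of the 33 genes was set against the other 3, which gave 66 groups, of which 2 stood apart by Dixon's criterion. Chance alone would pick about 1 group in 20. The level of *Erap1* in hNK replicate 1 was 142 CPM, whereas the other hNK libraries lay between 189 and 190.5 CPM. *Iigp1*, which was not tested, measured 2.35 CPM in hNK replicate 4, where the next highest hNK library had 0.333 CPM.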

How the results depend on the processing

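Of the 31 tested genes, 19 kept their direction and their call under all 16 alternatives. The number of genes that rose (19) was 17 to 18 when any 1 library was left out and 18 by DESeq2. The number that fell (3) was 3 to 6 when any 1 library was left out. The number past 1.5-fold as higher (7) was 6 to 8 in those fits. It was 9 without hNK replicates 3 and 4 and 4 without hNK replicates 1 and 2, both settings chosen after seeing the data. Signs turned in 3 genes, none of them called. *Igtp* had a log2 fold change of -0.032 with upper-quartile scaling and -0.012 with the replicate block, -0.062 to 0.095 when 1 library was left out, and -0.099 without hNK replicates 1 and 2. *Tapbpl* had -0.020 with upper-quartile scaling, -0.026 to 0.088 when 1 library was left out, and -0.053 without hNK replicates 1 and 2, where *Psme1* had -0.028. The cause was not tested. The subunit ratios kept their direction when 1 library was left out, with log2 differences of 0.61 to 0.74 for *Psmb8* to *Psmb5*, 0.43 to 0.62 for *Psmb9* to *Psmb6* and 0.42 to 0.52 for *Psmb10* to *Psmb7*. Their adjusted p then was 0.0571 to 0.0762, since 4 against 3 libraries allow no exact p below 0.0571. Depth limits *Gbp6*, *Iigp1*, *Gbp8*, *Ciita* and *H2-T22* most.

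The sources used here do not state that replicate numbers pair the samples. Deviations of same-numbered libraries from their group means correlated at 0.04, -0.11, 0.15 and 0.02, and not every library correlated best with its own number. With so few libraries, weak correlations cannot exclude a pairing. With the replicate block, 18 of the 31 genes rose and 4 fell, and over all genes 3581 rose and 3401 fell, against 3665 and 3557 without it.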
